A study of Mus musculus with 4 samples.

Results

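Transcripts of 10 genes of the fibroblast growth factor (FGF) and ERK pathway were compared between wild-type (WT) and Snf2l knockout mouse embryonic stem cells (ESCs). The genes were chosen by name and role, with earlier results of these data known. They are the ligand gene Fgf4, the receptor genes Fgfr1 and Fgfr2, the feedback inhibitor genes Dusp4, Dusp6, Spry2 and Spry4, and the ERK-responsive genes Etv4, Etv5 and Egr1. All 10 were found among the 24594 genes of the count table, and all 10 passed the filter on low counts.

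Poly(A) RNA was sequenced from 2 libraries of wild-type cells and 2 libraries of snf2l knock-out cells, all of 129S6/SvEvTac origin and given no treatment. As described in the study's methods, the cells were grown on gelatin in serum medium with leukemia inhibitory factor, and 1 clone was kept for each mutant genotype after Cas9 editing. Genotype and clone therefore cannot be told apart. The study's methods call the RNA-seq replicates independent, but neither they nor the labels say whether the libraries of a genotype came from separate cultures, and p-values measure only the spread between these libraries. The gene lost, Smarca1 in current nomenclature, codes for the ISWI remodeling ATPase SNF2L.

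In ESCs, FGF4 is secreted by the cells themselves and signals mainly through FGFR1, with heparan sulfate as a co-factor, to the Ras, RAF, MEK and ERK cascade. Active ERK moves cells away from the naive state and makes them competent to differentiate, and FGFR2 is known for its part in primitive endoderm. ERK also switches on its own brakes. DUSP4 and DUSP6 are phosphatases that remove the activating phosphates from MAP kinases, and SPRY2 and SPRY4 are Sprouty proteins that act between the receptor and RAF. The ETS factors ETV4 and ETV5 and the zinc finger factor EGR1 are widely used as transcriptional readouts of the pathway.

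The libraries held between 13771642 and 15608803 counts. Smarca1 had 620 and 626 counts in WT and 37 and 31 in the knockout, so its transcript was nearly lost in both libraries labelled as knockout. The summed level of 10 ESC markers, in CPM (counts scaled to the library total) per kb of gene length, was 2807 and 3074 in WT against 3033 and 3310 in the knockout, and the genotypes overlapped. By the test described below, 1 of the 10 was higher, 1 was lower and 8 did not pass. Of all genes tested, 4.0% were higher and 5.21% lower, and these shares also stand beside the marker counts that follow. Klf4 rose by 0.34 on the log2 scale (edgeR adjusted p = 0.0359). Zfp42 was at -0.60 (edgeR adjusted p = 3.80e-04) and lies on chromosome 8, -0.093 from the median of its genes. Summed levels of markers of other cell types were low beside those of the ESC markers. They were higher in the knockout for 8 fibroblast markers (3.96 and 2.97 in WT, 6.08 and 6.10 in the knockout) and for 8 primitive endoderm markers (11.5 and 8.73 in WT, 15.1 and 13.6 in the knockout). Of these, 2 of 6 tested fibroblast markers and 4 of 7 tested primitive endoderm markers passed the test described below, all higher in the knockout. The largest part of the fibroblast sum was Thy1, and most of the primitive endoderm sum was Lama1. Neither of these genes passed (edgeR adjusted p of 0.177 and 0.0733). The fibroblast marker Lum had 0 counts in all 4 libraries and Dcn had 2 or fewer. For 6 neural markers the sum was 83.5 and 95.3 in WT against 55.5 and 59.1 in the knockout, and 4 of 5 tested were lower. Tubb3, which made up most of this sum, and Sox1, also among these 4, lie on chromosome 8, -0.10 and -0.083 from the median log2 fold change of its genes, and with the chromosome 8 shift taken out the sum was 76.8 and 81.9 in the knockout. The others among these 4 were Pax6 on chromosome 2 and Nes on chromosome 3. Their log2 fold changes were -1.18 and -1.06 (edgeR adjusted p of 8.79e-05 and 4.25e-05). For 7 trophoblast markers the sum was 17.2 and 19.8 in WT against 21.1 and 20.4 in the knockout, and 2 of 6 tested were higher. Most of this sum was Tfap2c, whose libraries overlapped between the genotypes (edgeR adjusted p = 0.688). The 2 that passed were Krt7, with 29 to 58 counts per library, and Hand1, with 16 to 45. The part of these differences in the results for the FGF-ERK genes was not tested.

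The sequences before the start sites of Dusp6 and Spry2 are shown because these genes are feedback inhibitors that ERK signalling is known to induce. RefSeq windows on GRCm38.p6, the assembly of the mm10 build used for counting, were matched for 5 of the 10 genes, namely Fgf4, Fgfr2, Dusp6, Spry2 and Etv5. The 200 bases before the start are printed 5′ to 3′ for Dusp6 (chr10:99263031-99263230, plus strand) and Spry2 (chr14:105896820-105897019, minus strand). Capitals mark matches to the 3 motifs searched on both strands. These were CGGAAG, a form of the ETS factor site, TGANTCA, the AP-1 site, and the CArG box bound by serum response factor. Shorter or other forms of the ETS factor site were not searched. No match of any of these motifs can share letters with a match of another.
Dusp6: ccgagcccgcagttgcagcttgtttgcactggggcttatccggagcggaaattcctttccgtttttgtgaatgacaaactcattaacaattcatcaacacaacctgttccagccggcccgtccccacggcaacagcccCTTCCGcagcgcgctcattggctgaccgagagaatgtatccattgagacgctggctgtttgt
Spry2: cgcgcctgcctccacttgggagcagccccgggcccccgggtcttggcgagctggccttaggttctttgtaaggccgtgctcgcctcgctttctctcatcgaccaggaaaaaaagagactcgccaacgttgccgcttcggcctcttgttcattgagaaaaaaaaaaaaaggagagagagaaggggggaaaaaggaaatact
Dusp6 held 1 match to CGGAAG, which lies on the opposite strand and so reads as its reverse complement here. Spry2 and the windows of Fgf4, Fgfr2 and Etv5 held 0 matches to any of the 3 motifs. Of 32851 RefSeq windows of the same length, 12.1% held CGGAAG, 5.48% held TGANTCA and 1.18% held a CArG box. A match describes letters in this window and is not a measured binding site.

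Levels were first compared between the genes, as CPM per kb of gene length. In WT, Etv5 was highest at 78.7, followed by Fgf4 at 71.6 and Spry2 at 57.0 CPM per kb. Spry4 and Etv4 came next at 37.6 and 37.2, and they did not differ beyond the spread of the WT libraries. Dusp6 stood at 19.5, Fgfr1 at 17.0, Egr1 at 9.57, Dusp4 at 5.57 and Fgfr2 at 4.04 CPM per kb. Every other pair of neighbours in this order was separated in both WT libraries. The order was the same in the knockout except that Etv4 (44.0 CPM per kb) stood above Spry4 (33.9 CPM per kb), and there both libraries separated these genes. The pathway's own ligand and its ETS and Sprouty outputs were thus the most abundant of these transcripts, and the receptors and Dusp4 were among the least abundant.

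**Figure D1:**
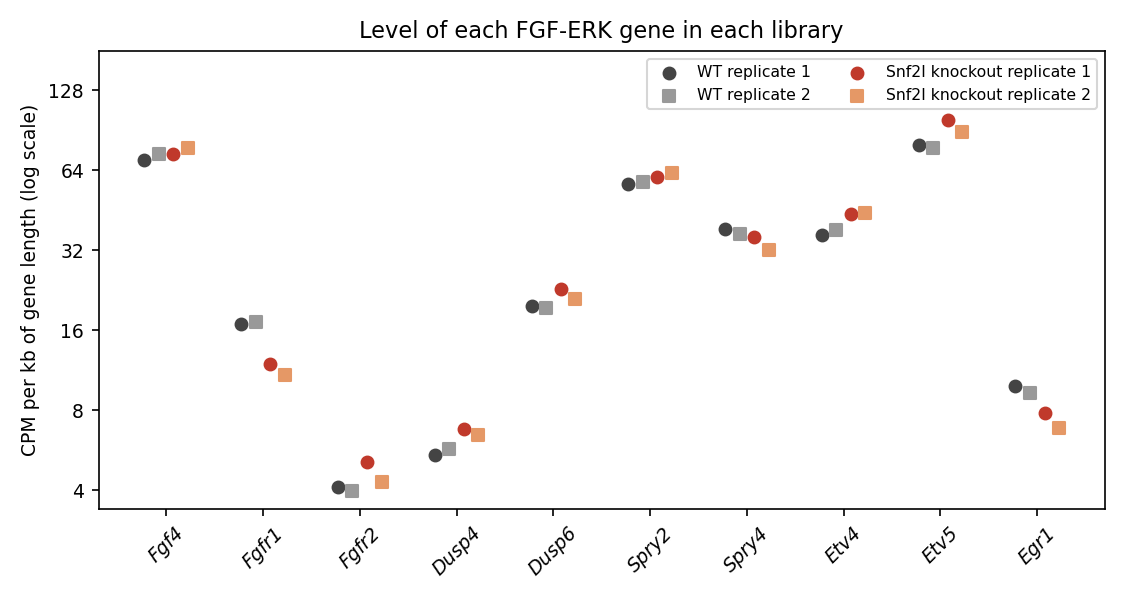
Level of each of the 10 genes in CPM per kb of gene length (log scale), with 1 point for each of the 2 WT and 2 Snf2l knockout libraries. Fgfr1 and Egr1 sit lower in both knockout libraries, at 11.9 and 10.9 CPM per kb for Fgfr1 against 16.8 and 17.2 in WT, and the points of Fgf4 overlap between the genotypes.

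Genotypes were compared with edgeR's quasi-likelihood test over all 13840 genes that passed the filter, with Benjamini-Hochberg adjustment, and a gene passed at an adjusted p-value under 0.05. Of the 10 FGF-ERK genes, 2 fell in the knockout (Fgfr1 and Egr1), 0 rose and 8 did not pass. Among all genes tested, 9.21% passed, with 5.21% (721 genes) lower and 4.0% (553 genes) higher. With the shift of chromosome 8, described below, removed from the fit, 217 genes were lower and 445 higher. At an unadjusted p-value under 0.05, 2 of the 10 were lower and 2 were higher (Etv4 and Etv5), beside 22.2% of all genes in either direction. DESeq2, at an adjusted p-value under 0.05, called 1 of the 10 lower (Fgfr1) and 0 higher, beside 6.26% of all genes in either direction. At the threshold of the study (adjusted p-value under 0.01 and a change over 2-fold), 0 of the 10 were differentially expressed, against 0.990% of all genes. The median log2 fold change of the 10 genes was 0.14, beside 0.00020 for all genes tested, and their log2 fold changes lay between -0.58 and 0.26. No 95% interval of the 10 reached a 2-fold change in either direction. Differences in bulk RNA do not tell fewer cells of a type from less RNA per cell.

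In 9 of the 10 genes the libraries of the genotypes did not overlap, with 6 genes above and 3 below WT in both knockout libraries. Of all genes tested, 50.5% were separated in this way, 25.2% above and 25.3% below, so separation of 2 libraries from 2 is common in this comparison. Fgf4 was the gene whose libraries overlapped.

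**Figure D2:**
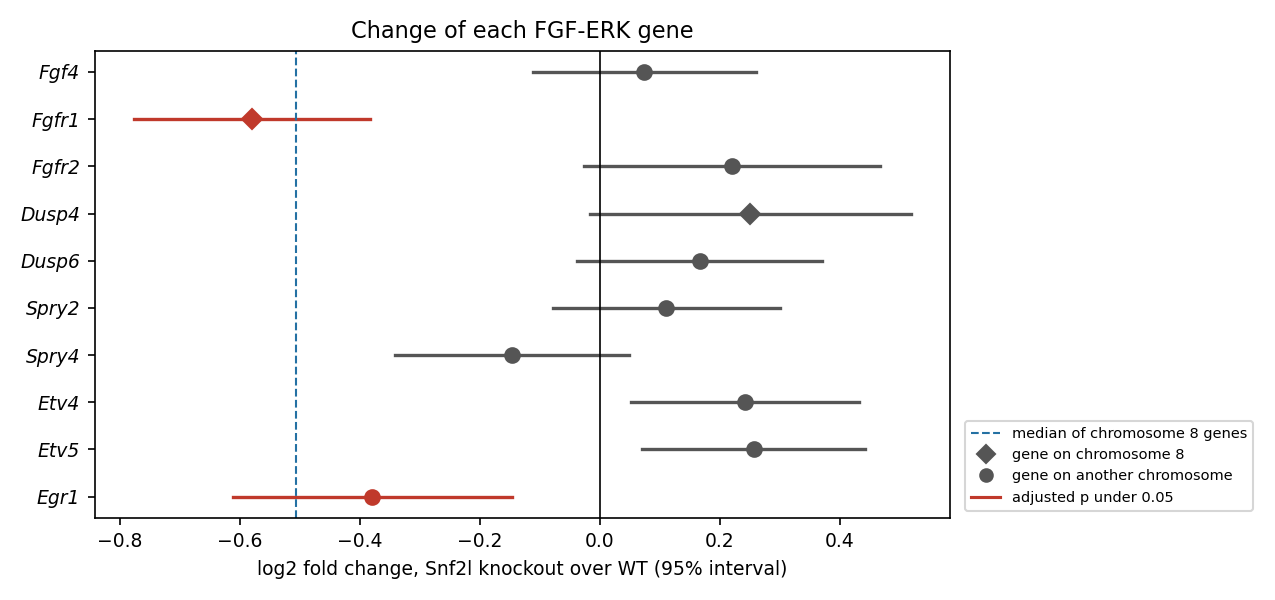
Log2 fold change of each of the 10 genes in the Snf2l knockout over WT, with its 95% interval from the quasi-likelihood fit (2 libraries per genotype). Red marks an adjusted p-value under 0.05, diamonds are genes on chromosome 8, and the dashed line is the median of the chromosome 8 genes tested, at -0.51. Fgfr1 lies near that line and Dusp4 lies far to its right.

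The ligand Fgf4 (Entrez gene 14175, chromosome 7, 144861386 to 144865245) had 3035 and 3594 counts in WT against 3675 and 3802 in the knockout. After scaling these were 223 and 234 CPM in WT and 234 and 247 CPM in the knockout. The first knockout library lay at the level of the second WT library. The log2 fold change was 0.074 (95% interval -0.11 to 0.26, edgeR adjusted p = 0.682), which is within the spread between replicates.

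The receptor Fgfr1 (Entrez gene 14182, chromosome 8, 25518759 to 25575718) had the log2 fold change farthest from 0 among the 10 genes when set against all genes. It had 1874 and 2156 counts in WT against 1526 and 1366 in the knockout. In CPM, its level fell from 139 ± 2.12 to 93.1 ± 5.92 (SD, n = 2 each), and the fitted level in the knockout was 66.9% of that in WT. The knockout libraries were the 2 lowest, and the gap was larger than the spread within either genotype. On the log2 scale this was a change of -0.58 with an SE of 0.092 (edgeR adjusted p = 9.87e-04). The median of all chromosome 8 genes was at -0.51, and with this shift removed from the fit Fgfr1 was at -0.075 and did not pass (edgeR adjusted p = 0.724). A pair of long non-coding RNA genes overlap Fgfr1 in the annotation. Gm16159 held 51 and 69 counts in WT against 45 and 34 in the knockout, and Gm31288 was not among the genes counted.

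The other receptor of the list, Fgfr2 (Entrez gene 14183, chromosome 7, 130162451 to 130266808), had 405 and 440 counts in WT against 580 and 478 in the knockout. This corresponds to 29.8 and 28.7 CPM in WT and 37.0 and 31.1 CPM in the knockout. The knockout libraries lay above the WT libraries but were far apart themselves. The log2 fold change of 0.22 did not pass the test (95% interval -0.027 to 0.47, edgeR adjusted p = 0.286).

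The balance of the receptors was then described within each library, on the scale of CPM per kb. Fgfr1 exceeded Fgfr2 by 4.10 and 4.34 times in the WT libraries and by 2.33 and 2.53 times in the knockout libraries. Of the summed level of Fgfr1 to Fgfr4, Fgfr1 made up 78.3 ± 0.610% in WT and 68.0 ± 1.19% in the knockout, and Fgfr2 made up 18.6 ± 0.607% and 28.0 ± 1.15% (SD, n = 2 each). The remaining receptors, Fgfr3 and Fgfr4, each held under 3% in every library. The summed level of these 4 receptors was 21.6 and 21.9 CPM per kb in WT and 17.7 and 15.8 CPM per kb in the knockout. The libraries of the genotypes did not overlap for the ratio, for these shares or for the sum. These values rest on Fgfr1 and so on the chromosome 8 shift. The ratio and the shares also rest on Fgfr2, whose log2 fold change of 0.22 did not pass (edgeR adjusted p = 0.286). With the shift taken out of the knockout libraries, a calculation added after the values were seen, the difference in the log2 ratio went from -0.80 to -0.29. The ratio was then 3.31 and 3.59 in the knockout, still below both WT libraries, and the share of Fgfr1 was 75.1 ± 1.02% (SD, n = 2). The sum was then 22.7 and 20.4 CPM per kb in the knockout and overlapped with WT. With 2 libraries against 2, an exact two-sided permutation test cannot give a p-value below 0.333, so no test of these ratios was run.

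Among the ligands a similar description was possible. Fgf4 made up 56.2% and 57.2% of the summed CPM per kb of 18 FGF ligand genes in WT, and 64.4% and 65.3% in the knockout. Fgf17 followed, with 24.2% and 25.7% in WT against 19.8% and 20.8% in the knockout. The sum over all 18 genes was 126 ± 2.91 CPM per kb in WT and 116 ± 3.35 CPM per kb in the knockout (SD, n = 2 each). The larger share of Fgf4 went with lower levels of other ligand genes, given below, and not with a change of Fgf4 that passed the test.

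**Figure D3:**
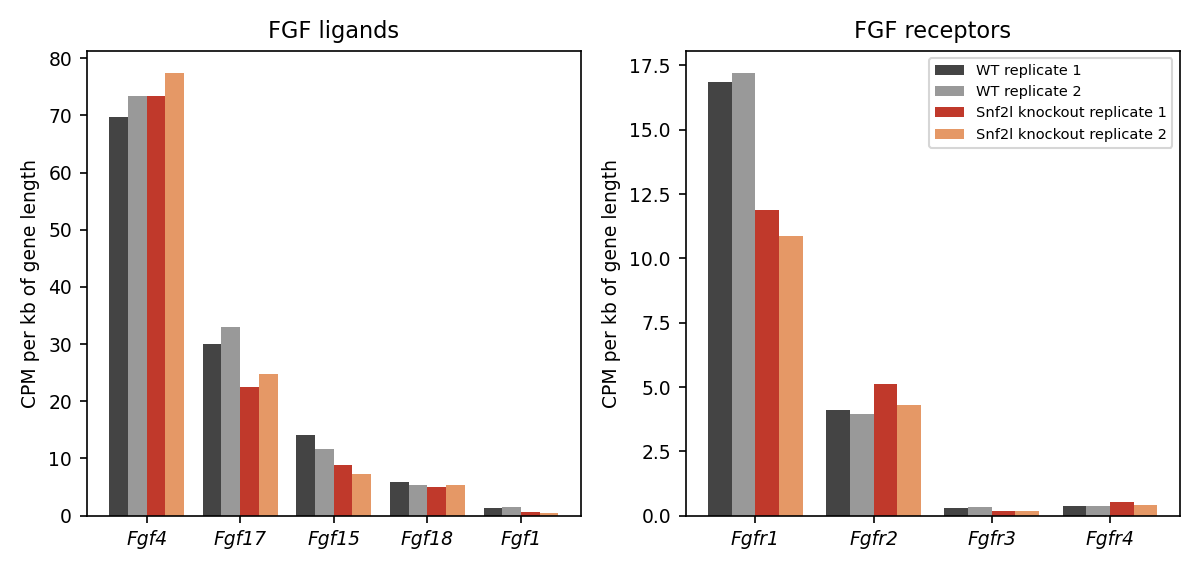
Level in CPM per kb of gene length of 5 FGF ligand genes (left) and 4 FGF receptor genes (right), with 1 bar for each of the 2 WT and 2 Snf2l knockout libraries. Fgf4 stands between 69.8 and 77.4 in all libraries, Fgfr1 is lower in both knockout bars, and Fgfr3 and Fgfr4 are close to 0 beside Fgfr1.

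The dual-specificity phosphatases were compared next. Dusp4 (Entrez gene 319520, chromosome 8, 34807610 to 34819894), a nuclear MAP kinase phosphatase, had 202 and 240 counts in WT against 293 and 271 in the knockout. Its level was 14.8 and 15.7 CPM in WT and 18.7 and 17.6 CPM in the knockout, so the knockout libraries were the higher ones. The log2 fold change of 0.25 did not pass the test (95% interval -0.017 to 0.52, edgeR adjusted p = 0.260). Dusp6 (Entrez gene 67603, chromosome 10, 99263231 to 99267489), which acts on ERK in the cytoplasm, had 839 and 929 counts in WT against 1119 and 1012 in the knockout. At 61.6 and 60.6 CPM in WT and 71.3 and 65.9 CPM in the knockout, it was again higher in both knockout libraries. Its log2 fold change was 0.17 (95% interval -0.038 to 0.37, edgeR adjusted p = 0.339). The ratio of Dusp6 to Dusp4 per kb was 3.63 and 3.39 in WT against 3.34 and 3.27 in the knockout, or 2.35 and 2.30 with the chromosome 8 shift taken out. The long non-coding RNA gene Gm34921 overlaps Dusp6 and was not among the genes counted.

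The Sprouty genes lay on opposite sides of WT. Spry2 (Entrez gene 24064, chromosome 14, 105891947 to 105896819) had 1606 and 1840 counts in WT and 1981 and 2009 in the knockout, or 118 and 120 CPM against 126 and 131 CPM. Spry4 (Entrez gene 24066, chromosome 18, 38586247 to 38601347) had 2479 and 2686 counts in WT and 2668 and 2346 in the knockout, or 182 and 175 CPM against 170 and 153 CPM. Neither passed the test. The log2 fold change of Spry2 was 0.11 (95% interval -0.079 to 0.30, edgeR adjusted p = 0.519), and that of Spry4 was -0.15 (95% interval -0.34 to 0.048, edgeR adjusted p = 0.384). The ratio of Spry4 to Spry2 per kb was 0.677 and 0.641 in WT against 0.591 and 0.513 in the knockout, so it was lower in both knockout libraries.

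The PEA3-type ETS factors Etv4 and Etv5 had nearly the same log2 fold change. Etv4 (Entrez gene 18612, chromosome 11, 101769747 to 101785310) had 1537 and 1810 counts in WT and 2135 and 2107 in the knockout, or 113 and 118 CPM against 136 and 137 CPM. Etv5 (Entrez gene 104156, chromosome 16, 22381313 to 22439570) had 4460 and 4875 counts in WT and 6355 and 5627 in the knockout, or 328 and 318 CPM against 405 and 366 CPM. Both were higher in both knockout libraries, at 118% and 119% of the WT level in the fit. Etv4 stood at 0.24 with an SE of 0.089 and Etv5 at 0.26 with an SE of 0.087 on the log2 scale, and neither passed over all genes (edgeR adjusted p of 0.114 for Etv4 and 0.0844 for Etv5). The 95% intervals, which are not adjusted for the number of genes, ran from 0.052 to 0.43 and from 0.071 to 0.44. With single libraries left out, Etv5 lay between 0.18 and 0.33 on the log2 scale. Its adjusted p-value was 0.158 with DESeq2. The ratio of Etv5 to Etv4 per kb was 2.20 and 2.04 in WT against 2.25 and 2.02 in the knockout, and the genotypes overlapped.

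Egr1 (Entrez gene 13653, chromosome 18, 34861207 to 34864956), an immediate early gene that responds to ERK through serum response factor and its ETS partners, had 601 and 639 counts in WT against 551 and 474 in the knockout. In CPM, Egr1 fell from 42.9 ± 1.74 to 33.0 ± 3.02 (SD, n = 2 each), and the fitted level in the knockout was 76.9% of that in WT. The knockout libraries were the 2 lowest, with no overlap. On the log2 scale this was a change of -0.38 with an SE of 0.108 (edgeR adjusted p = 0.0404). The adjusted p-value lay close to the threshold, and the direction held in all 14 alternatives but the call in 7 of them. It was 0.115 with DESeq2, and in edgeR it was 0.284 without WT replicate 1, 0.104 without WT replicate 2 and 0.170 without knockout replicate 2.

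Fgfr1 and Dusp4 lie on the same chromosome and lay on opposite sides of WT, and they were compared with the other genes of chromosome 8. The 754 tested genes of this chromosome had their median at -0.51 on the log2 scale, and 60.1% of them passed the test as lower. Fgfr1 lay -0.075 from this median, and 33.4% of the chromosome 8 genes had a lower log2 fold change. Dusp4 lay 0.76 above the median and ranked 22nd from the top among the 754, of which 47 had a positive value. In the fit that subtracted this shift from all chromosome 8 genes, Dusp4 was at 0.76, passed as higher (edgeR adjusted p = 2.28e-03) and was the gene of the 10 farthest from 0. The call for Fgfr1 therefore depends on whether the gene is set against all genes or against its chromosome. Without the subtraction, Dusp4 did not pass (edgeR adjusted p = 0.260). The subtracted shift was estimated from the same libraries and taken as fixed. The p-values of that fit do not measure the uncertainty of the shift or the spread of chromosome 8 genes around it. With the shift removed, 1 of the 10 genes was higher and 0 were lower, since the adjusted p-value of Egr1 became 0.0616. Egr1 is on another chromosome, and its own log2 fold change of -0.38 and unadjusted p-value were the same in that edgeR fit, so that the adjustment over all genes alone moved its call.

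**Figure D4:**
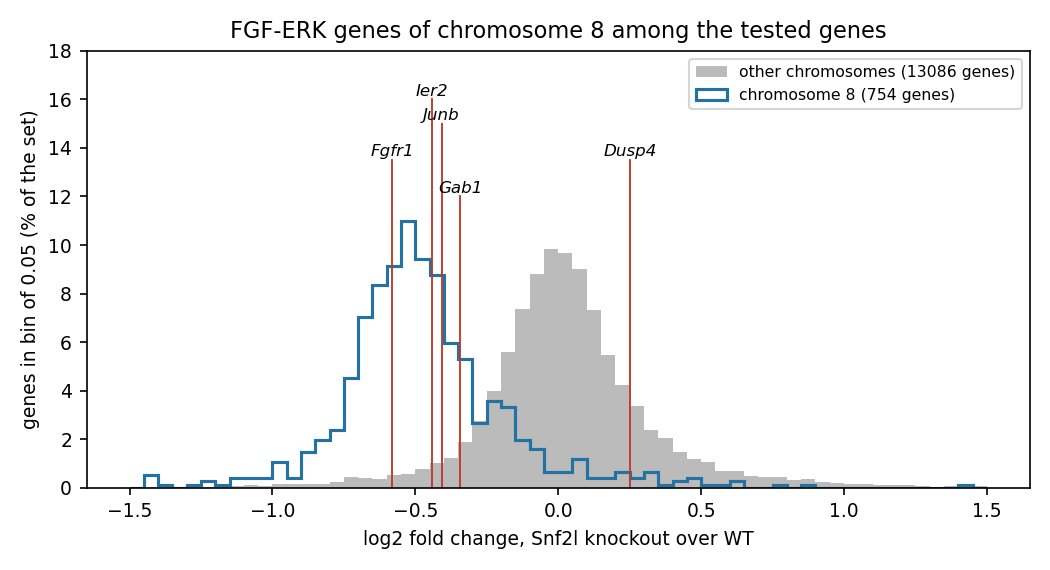
Distribution of log2 fold changes (Snf2l knockout over WT, bins of 0.05, values outside the drawn range left out) for 754 genes of chromosome 8 (blue outline) and for the tested genes of the other chromosomes (grey), each as a percentage of its set. Red lines mark FGF-ERK genes of chromosome 8. Fgfr1, Ier2, Junb and Gab1 lie within the main body of the chromosome 8 genes, and Dusp4 at 0.25 lies in its upper tail.

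The rest of the pathway was examined with 83 further genes, grouped by role, in lists drawn up with earlier results of these data known. Of these, 71 passed the filter on low counts and 12 did not. At an adjusted p-value under 0.05, 4 were higher and 6 were lower, which is to be read beside 4.0% and 5.21% of all genes tested. The median log2 fold change of the 71 genes was 0.027. Only Fgf1 met the threshold of the study for a differentially expressed gene. Changes of over 2-fold were thus rare here too, and every role had genes that did not pass.

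Ligand genes other than Fgf4 gave 3 of the 6 falls, among 9 tested, and 0 rose. Fgf1, a ligand that binds all FGF receptors, had 101 and 131 counts in WT and 56 and 33 in the knockout, which gave -1.48 on the log2 scale with an SE of 0.219 (edgeR adjusted p = 6.18e-04). Fgf15, which lies next to Fgf4 on chromosome 7, had 407 and 381 counts in WT and 296 and 239 in the knockout and fell by 0.67 on the log2 scale (edgeR adjusted p = 5.33e-03). Fgf17, a ligand of the Fgf8 subfamily, had 692 and 855 counts in WT and 598 and 641 in the knockout and fell by 0.42 (edgeR adjusted p = 0.0192). The genotypes did not overlap in any of these ligand genes, with the knockout lower. Without WT replicate 2 the adjusted p-value of Fgf17 in edgeR was 0.206. Of the other ligand genes, Fgf5 and Fgf8 were picked after their values were seen. Fgf5, an early marker of the primed state, did not pass and had only 7 and 12 counts in WT and 8 and 13 in the knockout. Fgf8 had 3 or fewer in every library and was not tested, since the filter on low counts removed it.

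Few genes of the heparan sulfate enzymes and the signalling core passed the test. Of 6 heparan sulfate enzymes, Hs6st1, a sulfotransferase, had 1568 and 1765 counts in WT and 2326 and 2104 in the knockout and rose by 0.31 on the log2 scale (edgeR adjusted p = 0.0457). The call for Hs6st1 held in 8 of the 14 alternatives, and with single libraries left out it lay between 0.25 and 0.36. Its adjusted p-value was 0.0817 with DESeq2. In edgeR it was 0.0689 with the chromosome 8 shift removed and 0.0809 with a filter of at least 1 count. Of 13 adaptor and Ras pathway genes, Gab1, a docking protein for receptor signalling, had 8972 and 9458 counts in WT and 7967 and 7653 in the knockout and was lower at -0.34 (edgeR adjusted p = 0.0147). Its adjusted p-value in edgeR was 0.278 without WT replicate 1 and 0.0740 without WT replicate 2. Gab1 is a chromosome 8 gene, and with the shift of that chromosome removed it was at 0.16 (edgeR adjusted p = 0.301). Of the 13 genes of the kinase cascade, 0 passed, with log2 fold changes between -0.23 and 0.24. At an unadjusted p-value under 0.05 edgeR called 2 of them, where it called 22.2% of all genes in either direction. Of 4 further receptor and co-receptor genes tested, edgeR called 0, or 1 at an unadjusted p-value under 0.05, which was Fgfr3 with 30 and 35 counts in WT against 21 and 22 in the knockout.

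Further inhibitors went both ways. Dusp9, the X-linked ERK phosphatase that is abundant in ESCs, had 2261 and 2644 counts in WT and 3493 and 3113 in the knockout and rose by 0.33 on the log2 scale (edgeR adjusted p = 0.0317). Il17rd, also known as Sef, a membrane protein that dampens FGF signalling, had 708 and 761 counts in WT and 614 and 503 in the knockout and fell by 0.50 (edgeR adjusted p = 9.51e-03). The remaining 9 of 11 inhibitor genes tested did not pass. The call for Dusp9 was lost in 5 of the 14 alternatives, with adjusted p-values of 0.304, 0.158 and 0.0949 without WT replicate 1, WT replicate 2 and knockout replicate 1 in edgeR. Without WT replicate 1 the adjusted p-value of Il17rd in edgeR was 0.0556.

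Of 15 further target genes tested, 2 were higher and 1 was lower. Ier3 and Phlda1, both growth factor-induced genes, had 72 and 79 counts and 51 and 67 counts in WT, and 136 and 142 counts and 121 and 99 counts in the knockout. Ier3 rose by 0.78 with an SE of 0.162 (edgeR adjusted p = 6.34e-03), and Phlda1 by 0.80 with an SE of 0.186 (edgeR adjusted p = 0.0133). The adjusted p-value of Phlda1 was 0.0733 in edgeR without WT replicate 1 and 0.0930 with DESeq2. Ier2, an immediate early gene on chromosome 8, had 1855 and 2490 counts in WT and 1678 and 1739 in the knockout and fell by 0.44 (edgeR adjusted p = 0.0114), but with the chromosome shift removed it was at 0.065 (edgeR adjusted p = 0.787). Without WT replicate 2 it was at -0.31 with an adjusted p-value of 0.249 in edgeR. Other immediate early genes were chosen after their values were seen. Junb, also on chromosome 8, was at -0.41 with an adjusted p-value of 0.0522 in edgeR. Fos had 30 and 57 counts in WT against 44 and 48 in the knockout. Myc and Nr4a1 lay above WT, at 0.28 and 0.29 (edgeR adjusted p of 0.0608 and 0.0918). At an unadjusted p-value under 0.05, edgeR called 6 of the 15 higher and 2 lower, beside 22.2% of all genes in either direction.

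**Figure D5:**
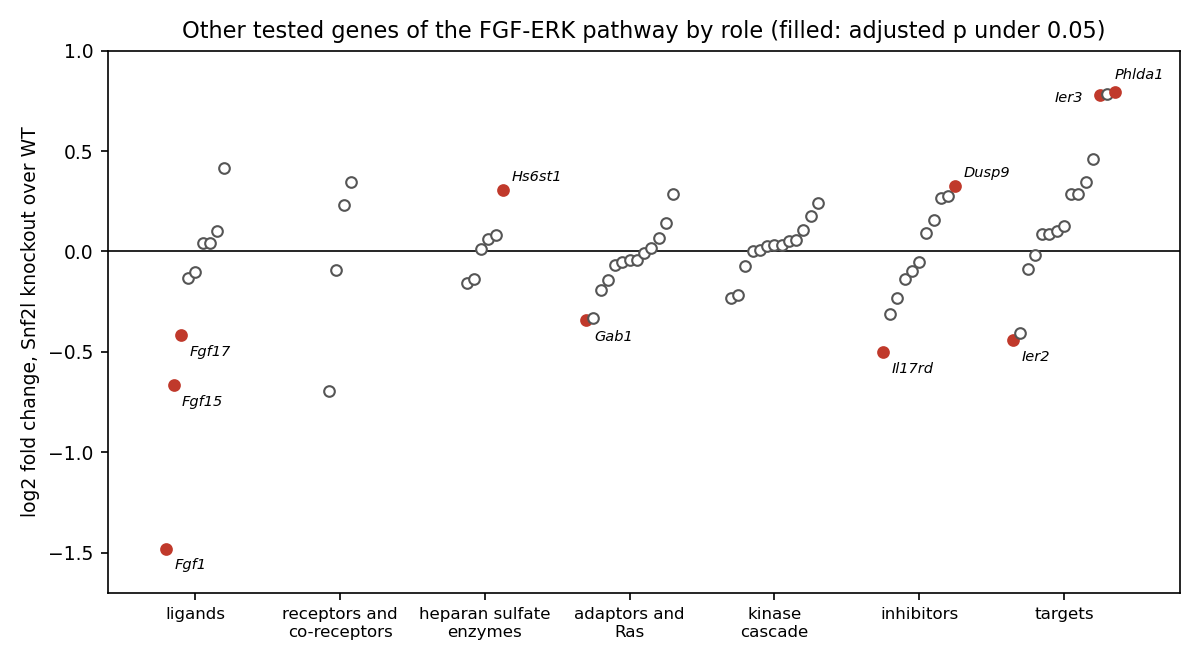
Log2 fold change (Snf2l knockout over WT) of the 71 further FGF-ERK pathway genes that were tested, arranged by role, with 1 point per gene. The 10 filled red points passed the test at an adjusted p-value under 0.05, with Fgf1 at -1.48 farthest from 0, and open points did not pass.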

How the data were processed

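RNA-seq was compared in 2 WT and 2 Snf2l knockout libraries. The authors deposited raw read counts per Entrez gene and a gene length in bp. They made the counts with QuasR and HISAT2 on mm10 over UCSC Known Genes, and the submitters' processing notes also name bcl2fastq 2.17. Whether counting used strand is not given in the sources used here, so reads of overlapping antisense genes may be included. Depth was 13771642 to 15608803 counts per library.

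Symbols and positions came from RefSeq on GRCm38.p6, which matched 24570 of 24594 genes. Genotypes were compared with edgeR 4.0.16 under R 4.3.3 (filterByExpr with minimum count 10, TMM scaling, legacy quasi-likelihood fit, genotype as the only term), and p-values were adjusted over 13840 genes. SEs and intervals were derived from the F statistic. CPM used TMM-scaled library sizes. The procedure was run on simulated data with the same dispersion (spread between replicates) for all genes and changes of 2-fold or more. That run did not cover smaller changes or dispersions that differ between genes. The FGF-ERK genes and all lists were chosen with earlier results of these data known. Genes named were the 10, the further pathway genes that passed the test, and Smarca1; others were chosen after their values were seen. Alternatives were 3 scalings, 2 filters, DESeq2 1.42.0, the edgeR 4 fit, robust estimation, a replicate block, removal of the chromosome 8 shift, each library left out, and 2 thresholds.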

Additional observations from a re-analysis of the deposited data

How the results depend on the processing

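Of 140 alternative values for the 10 FGF-ERK genes, 0 changed direction, 127 kept their side of the threshold, 8 no longer passed and 5 newly passed. The number of these genes that were lower, 2, became 1 with upper-quartile scaling, with a filter of at least 1 count and with DESeq2, and 0 with the chromosome 8 shift removed and at the threshold of the study. It lay between 1 and 2 when 1 library was left out. The number that were higher, 0, became 3 with the replicate number as a block, 1 with the chromosome 8 shift removed and 2 at an unadjusted p-value under 0.05, and lay between 0 and 1 when 1 library was left out. Of the 83 further genes, the 4 that were higher became 2 with a filter of at least 1 count, with DESeq2 and with the chromosome 8 shift removed, 11 under the block, 0 at the threshold of the study and 9 at an unadjusted p-value under 0.05, and lay between 1 and 6 when 1 library was left out (1 without WT replicate 1, 2 without WT replicate 2 and 2 without knockout replicate 1). The 6 that were lower became 11 under the block, 1 at the threshold of the study and 12 at an unadjusted p-value under 0.05, and lay between 4 and 10 when 1 library was left out. Without knockout replicate 1 it was 10. Over all genes, an unadjusted p-value under 0.05 in edgeR called 22.2% in either direction. With the chromosome 8 shift removed, 4 of the 83 further genes were lower. Of the genes named, Gab1 and Ier2 reversed in that fit, to 0.16 and 0.065. The cause of the other changes was not tested.

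Over all genes the calls went from 1274 to 3471 under the block, 799 with DESeq2, 662 with the chromosome 8 shift removed, 829 without WT replicate 1 and 1932 without knockout replicate 1. Across genes, the deviations of libraries with the same replicate number had a correlation of 0.196, and with 2 pairs the pairing is not established. Under the block Fgfr2, Etv4 and Etv5 passed as higher, with adjusted p-values of 0.0440, 1.19e-03 and 9.77e-05 in edgeR.

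With 2 libraries per genotype, the 95% intervals of Dusp4 and Fgfr2, at 202 to 580 counts per library, held both 0 and 0.4 on the log2 scale. How far depth or the spread between libraries set this width was not tested.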
